A study of Mus musculus with 2 samples.

Results

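Cytosolic ribosomal protein genes encode the proteins that, with ribosomal RNA, form the small and large subunits of the ribosome. Members were chosen by name from the gene columns of a single-cell count table. A column was taken if its name began with Rps or Rpl followed by a digit, or was *Rplp0*, *Rplp1*, *Rplp2* or *Rpsa*, and names with -ps (pseudogenes) or beginning with Rps6k (kinases) were left out. The rule gave 86 of 27031 gene columns: 31 proteins of the small subunit, 43 of the large subunit, 3 of the ribosomal stalk, 8 paralogs and retrocopies, and *Rps19bp1*, which fits the naming rule but does not encode a ribosomal protein.

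The study asked how telmisartan, an angiotensin receptor blocker taken for high blood pressure, alters immune cells in a mouse model of colorectal cancer. Female C57BL/6 mice aged 6 to 8 weeks carried subcutaneous MC38 tumors, a colon adenocarcinoma line of that strain, and received vehicle (control) or telmisartan at 5 mg/kg into the stomach each day from implantation. Tumors were taken on day 13, live CD45+ cells were sorted, and the cells of 5 mice per group were pooled, labeled with Sample Tag 1 (control) or Sample Tag 2 (telmisartan) and loaded together in 1 BD Rhapsody capture. The table holds unique molecular identifiers (UMIs), each counting a captured RNA molecule once, for 20726 putative cells.

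After assignment to a tag, limits on genes and mitochondrial UMIs, and removal of likely doublets, 4535 cells of the control pool, holding 41591125 UMIs, and 4434 of the telmisartan pool, holding 30921742, were kept. Median depth was 8689 UMIs per control cell and 6357.5 per telmisartan cell. Each group was 1 pool, so there are no replicates and no test between groups, and all intervals are exact 95% intervals that cover counting error only. Levels are given as UMIs per 1000000 UMIs of the same cells (CPM), and because a UMI counts a molecule once, levels of different genes are compared without a correction for length.

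Ribosomal proteins are made in matched amounts in every nucleated cell, and their mRNAs are among the most abundant of a cell. Many of these mRNAs begin with a cytosine followed by a run of pyrimidines, the terminal oligopyrimidine (TOP) sequence, through which their translation responds to the mTOR kinase. Activated lymphocytes and growing cells enlarge their ribosome pool, and several ribosomal proteins also act outside the ribosome.

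Cell classes were rebuilt from the counts with the members left out of the genes used for clustering, and were checked against markers. The level of *Lyz2*, the lysozyme of myeloid cells, was 10520 CPM in macrophage-like cells, and that of *C1qb*, a complement chain, was 1769 CPM. The level of *Cd3e*, a chain of the T cell receptor complex, was 616 CPM in T-like cells and 1.17 CPM in macrophage-like cells. The level of *Ccr7*, a chemokine receptor of mature dendritic cells, was 617 CPM in dendritic-like cells and 3.79 CPM in macrophage-like cells. The level of *Retnlg*, a neutrophil secretory gene, was 643 CPM in neutrophil-like cells and 0.15 CPM in macrophage-like cells. These markers fit the labels of the 4 classes, while macrophage transcripts were also found in the other 3. Not every marker was specific, and *Il1r2*, on the neutrophil list, was at 1785 CPM in neutrophil-like and 1617 CPM in dendritic-like cells. The NK cell marker *Klre1* was at 83.2 CPM in T-like and 0.18 CPM in macrophage-like cells. *Klrb1c*, also of NK cells, was at 30.4 CPM and 0.47 CPM. Whether the T-like class holds NK cells was not tested.

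The share of all UMIs that came from the members set the classes apart. In macrophage-like cells the members took 9.998% of UMIs (exact Clopper-Pearson interval 9.990 to 10.005%, 8046 cells) over both groups. In dendritic-like cells the share was 11.3% (11.27 to 11.32%, 668 cells), a log2 ratio over macrophage-like cells of 0.18 (0.17 to 0.18). The T-like cells had the highest share of the 4 classes, 12.6% (12.6 to 12.7%, 184 cells), and the log2 ratio over macrophage-like cells was 0.34 (0.33 to 0.34). The neutrophil-like cells had the lowest, 2.13% (2.05 to 2.21%, 71 cells), with a log2 ratio over macrophage-like cells of -2.23 (-2.28 to -2.18). This order of the classes by summed UMIs was the same in both pools, while by the median cell the control dendritic-like share, 10.9%, lay above the control T-like share, 10.7%. The T-like class held a cluster led by the cytotoxic genes *Gzmc*, *Gzma*, *Ifng* and *Prf1*, in which the member share was 13.7% (13.6 to 13.7%, 142 cells), and a cluster led by *Foxp3*, the master regulator of regulatory T cells, in which it was 10.03% (9.91 to 10.1%, 42 cells). Of the macrophage markers, 11 were found in at least 10% of the cells of the cluster led by *Foxp3*, and 7 in the cytotoxic cluster. The part of macrophage transcripts in the shares of these clusters was not tested.

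**Figure D1:**
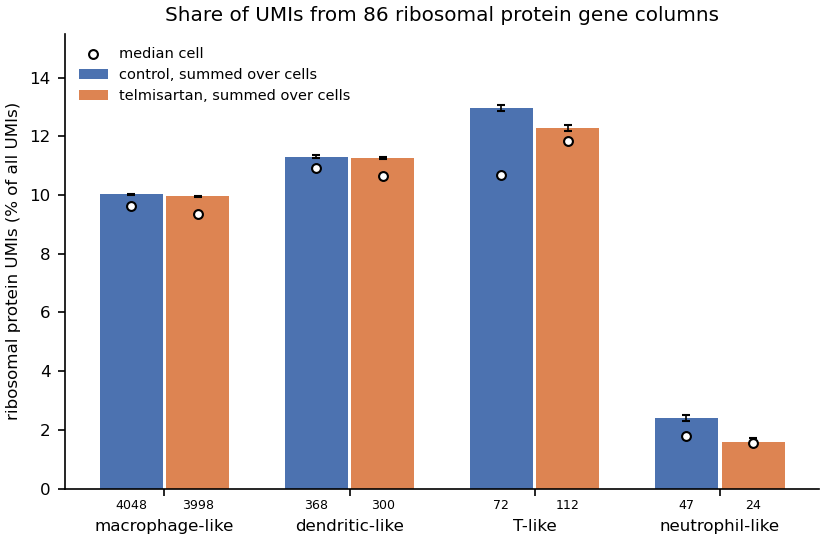
Bars show the percent of all UMIs that came from the 86 members, summed over the cells of each class in the control and telmisartan pools, with exact Clopper-Pearson 95% intervals, circles show the median cell and the numbers under the bars are cells. T-like bars are the highest, at 12.97% and 12.3%, and neutrophil-like bars the lowest, at 2.41% and 1.60%, while the T-like median cells lie in the opposite order to the T-like bars.

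The 4 classes were then compared between the pools. In macrophage-like cells the members took 10.02% of UMIs in control (10.01 to 10.03%, 4048 cells) and 9.96% in telmisartan (9.95 to 9.97%, 3998 cells). The log2 ratio of telmisartan over control was -0.0091 (-0.0113 to -0.0069), and it became positive, 0.033, with the TMM factors of edgeR, which scale to the bulk of genes rather than to the total. Measures per cell lay further below 0, with a log2 ratio of -0.044 for the mean of each cell's own share and -0.040 for cells thinned to 1000 UMIs, and the median cell had a share of 9.63% in control and 9.36% in telmisartan. The pools thus differed by less in the summed share than the choice of scaling or measure moved the ratio. Mitochondrial UMIs made up 7.50% of macrophage-like UMIs in control and 8.12% in telmisartan, and the median macrophage-like cell held 8972 and 6454.5 UMIs. The small subunit proteins took 4.64% of UMIs in both pools, and the large subunit proteins 5.32% in control and 5.27% in telmisartan.

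In dendritic-like cells the share was 11.3% in both pools, with a log2 ratio of -0.0073 (-0.015 to 0.00033, 368 and 300 cells). The ratio was positive with a tag share of at least 90% and with at most 10% mitochondrial UMIs. The median dendritic-like cell had a share of 10.9% in control and 10.7% in telmisartan. Cells thinned to 1000 UMIs had 11.01% and 10.8%, so the gap was wider by both measures. The dendritic-like clusters went different ways, with a log2 ratio of 0.031 (0.022 to 0.040) in the one led by *Cd209a*, -0.20 (-0.22 to -0.18) in the one led by *Fscn1* and -0.028 (-0.045 to -0.010) in the one led by *Xcr1*. In T-like cells it was 12.97% in control (12.9 to 13.1%, 72 cells) and 12.3% in telmisartan (12.2 to 12.4%, 112 cells), a log2 ratio of -0.079 (-0.096 to -0.063). The log2 ratio was -0.13 (-0.15 to -0.11, 50 and 92 cells) within the cytotoxic cluster and -0.018 (-0.054 to 0.017, 22 and 20 cells) within the cluster led by *Foxp3*, so the class mixes clusters of unlike share in each pool. The class ratio was positive, 0.031, with a tag share of at least 90%, and further below 0 with at least 500 genes (-0.12), without doublet removal (-0.14) and with at most 10% mitochondrial UMIs (-0.16). The median T-like cell lay the other way, with a share of 10.7% in control and 11.9% in telmisartan, and so did T-like cells thinned to 1000 UMIs each, at 11.6% and 11.9% after 4 control and 9 telmisartan cells with fewer UMIs were left out. The 11 macrophage markers summed to 6111 CPM in control and 4036 CPM in telmisartan T-like cells, with *Lyz2* the most abundant, and their part in the T-like shares was not tested.

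In neutrophil-like cells the member share was 2.41% in control (2.31 to 2.51%, 47 cells) and 1.60% in telmisartan (1.48 to 1.71%, 24 cells). The log2 ratio was -0.59 (-0.72 to -0.47), the widest gap among the 4 classes and the one with the fewest cells. The median cell had a share of 1.79% in control and 1.56% in telmisartan, and cells thinned to 1000 UMIs had 1.99% and 1.75%, so the gap was smaller by both measures. It was wider, with log2 ratios of -1.005 and -1.08, with a tag share of at least 90% and without doublet removal. The macrophage markers summed to 3557 CPM in control and 2327 CPM in telmisartan neutrophil-like cells, *C1qa* was at 0 UMIs in the latter, and their part in the gap was not tested.

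Macrophage-like cells differed among themselves more than the pools did. They were divided into 6 subclusters, in which the share over both groups ran from 7.71% to 10.9%. The highest share, 10.9%, was in subcluster 1, led by *Dcstamp*, a fusion protein of osteoclasts and giant cells, and *Lilra6*. Subcluster 5, led by genes of cell division such as *Aspm* and *Ccna2*, had 10.6%. The subclusters with the lowest shares were 3, led by the interferon-induced genes *Ifit3* and *Rsad2*, at 7.74%, and 4, led by *Serpinb2* and *Il6*, at 7.71%. They were also the shallowest, with medians of 2509.5 and 3930.5 UMIs per cell.

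Between the pools, the share in subcluster 1 was 10.7% in control and 11.2% in telmisartan, a log2 ratio of 0.060 (0.056 to 0.063). In subcluster 4 it was 8.04% in control and 7.44% in telmisartan, a log2 ratio of -0.11 (-0.12 to -0.10). The ratio was above 0 in 5 of 6 subclusters and below 0 in subcluster 4, whereas over all macrophage-like cells it was slightly below 0. Among the 7 macrophage-like clusters of the whole data set it was above 0 in 4 and below 0 in 3. The sign could change between the clusterings for cells led by the same genes. The log2 ratio was 0.029 (0.018 to 0.040) in subcluster 3 and -0.052 (-0.063 to -0.042) in the cluster also led by *Ifit3*. It was 0.021 (0.016 to 0.026) in subcluster 2, led by *Gas6*, and -0.012 (-0.017 to -0.0068) in the cluster also led by *Gas6*. The clusters holding the most cells differed between the pools, the one led by *Cxcl9* and *Serpina3g* in control and the one led by *Areg* and *Il1a* in telmisartan. In the former the share was 10.6% in control and 11.1% in telmisartan, and in the latter 10.3% and 10.97%.

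The share also followed the depth of a cell. Over both groups it was 4.90% (4.76 to 5.03%, 116 cells) in macrophage-like cells with 500 to 1000 UMIs. It was 7.92% (7.90 to 7.95%, 1178 cells) at 2000 to 4000 UMIs and 10.6% (10.6 to 10.7%, 658 cells) at 16000 UMIs or more. The mitochondrial share ran the other way, from 13.6% in the shallowest of these bins to 6.34% in the deepest. Within bins with the same limits, the member share was higher in telmisartan in 5 of 6 bins with at least 20 cells per pool, in the bin of 2000 to 4000 UMIs by a log2 ratio of 0.0023 (-0.0088 to 0.013). Depth still differed within a bin, with medians of 11433 UMIs in control and 10516 in telmisartan at 8000 to 16000 UMIs. The log2 ratio was largest in the deepest bin, 0.076 (0.071 to 0.082), where the share was 10.5% in control and 11.1% in telmisartan.

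**Figure D2:**
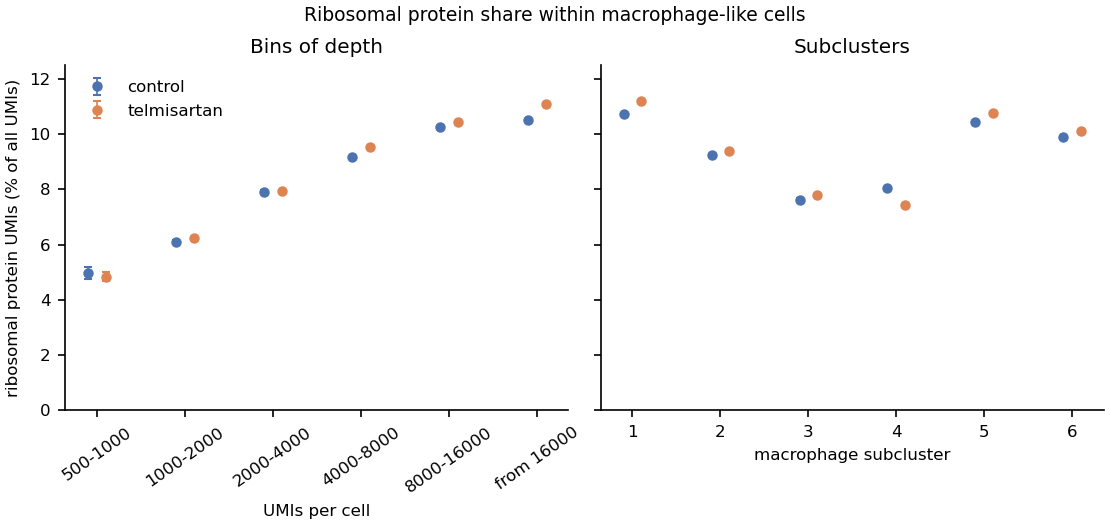
Points show the percent of UMIs from the members in macrophage-like cells of each pool, by bin of UMIs per cell (left) and by subcluster (right), with exact Clopper-Pearson 95% intervals that are mostly smaller than the points. The share rises from 4.90% to 10.6% over the bins, and subcluster 4 is the subcluster in which the telmisartan point lies below the control point.

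The members were then compared one by one in macrophage-like cells. Of the 86 members, 84 had at least 100 UMIs over both pools, and *Rpl10l* and *Rpl39l* did not. The level was higher in telmisartan for 31 of the 84, beside 42.9% of all 11074 genes past the same filter, and with the TMM factors it was higher for 51, beside 49.5% of all genes at that scaling. A ratio at or above the inverse of 0.8 was reached by 1 member, *Rpl36al*, beside 12.2% of all genes, and by 0 members with at most 10% mitochondrial UMIs or without doublet removal. A ratio of 0.8 or less was reached by 0 members, beside 11.7% of all genes. The median log2 ratio of the members was -0.015 (lowest -0.32, highest 0.35), and that of all genes was -0.046, so the members' median lay 0.031 above that of all genes. Abundant genes, with at least 10000 UMIs, had a median of -0.031, and the 77 members among them a median of -0.023. Without scaling, as UMIs per cell, the median of all genes was -0.46 and 0 of the 84 members were higher in telmisartan.

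**Figure D3:**
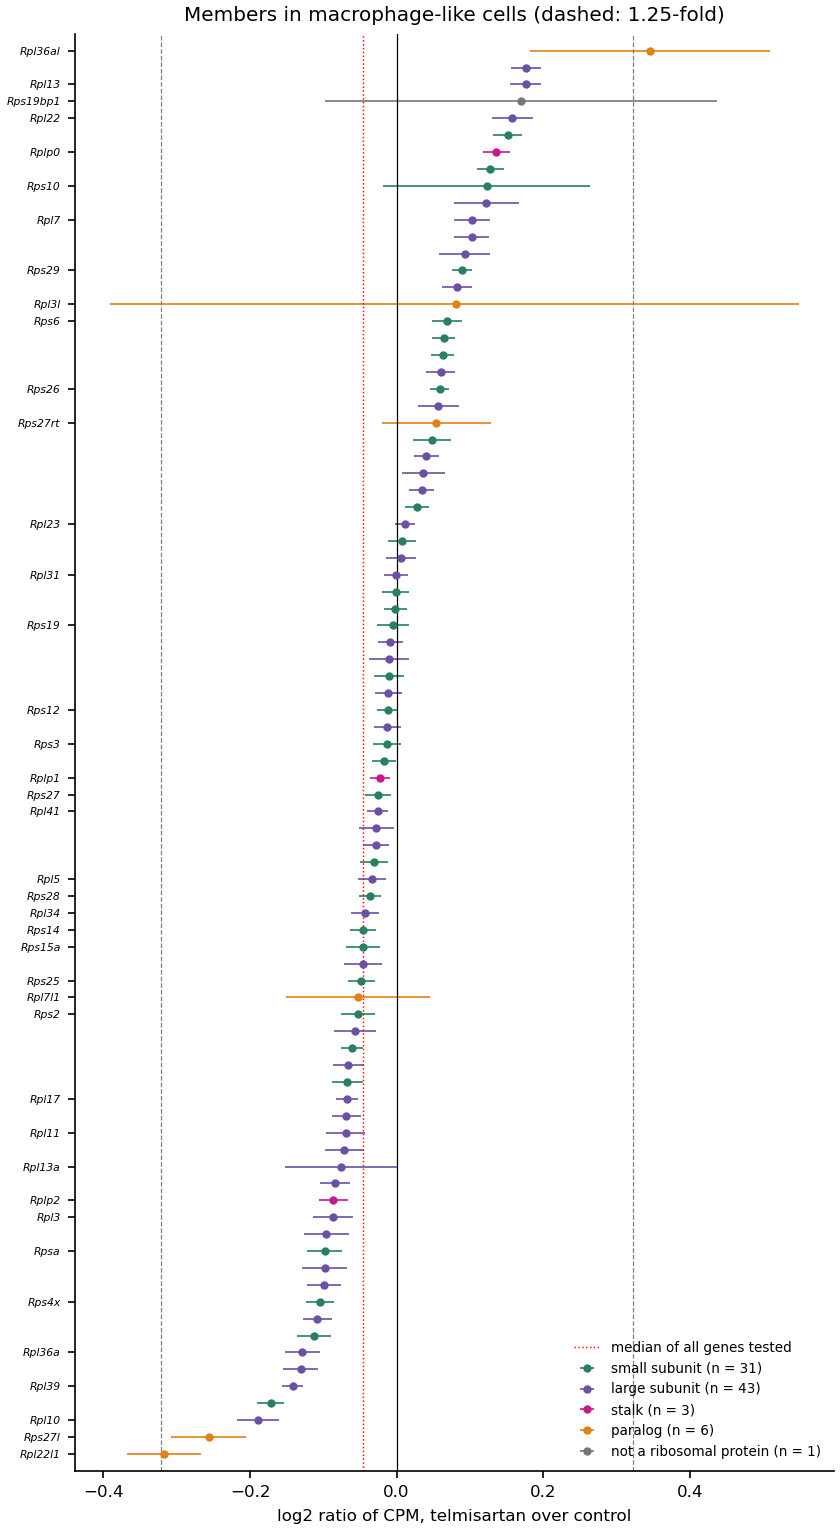
Points show the log2 ratio of CPM, telmisartan over control, of the 84 members with at least 100 UMIs in macrophage-like cells, colored by role, with exact conditional binomial 95% intervals, lines mark 0, a ratio of 0.8 and its inverse and the median of all genes, and members named in the text are labeled. *Rpl36al* is the point past the upper dashed line, and the TMM factors would move every point by 0.042 to the right, which raises the count above 0 from 31 to 51.

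Among the 31 small subunit proteins, 11 were higher and 20 lower in telmisartan, beside 42.9% of all genes higher, with a median log2 ratio of -0.012. With the TMM factors 21 were higher and 10 lower, beside 49.5% of all genes higher, and the median became 0.030. The most abundant member of all was *Rps26*, a protein at the channel through which mRNA leaves the ribosome, with 3103 CPM in control (3085 to 3121) and 3231 CPM in telmisartan (3211 to 3252). Its log2 ratio was 0.059 (0.046 to 0.071). *Rps29*, a small zinc-binding protein of the subunit's head, had 2494 CPM in control and 2653 CPM in telmisartan, a log2 ratio of 0.089 (0.075 to 0.10). *Rps12*, also in the head, had 2446 CPM in control and 2425 CPM in telmisartan, a log2 ratio of -0.012 (-0.027 to 0.0019), positive with the TMM factors. The levels of these members thus differed little between the pools. *Rps28* had 2069 CPM in control and 2017.5 CPM in telmisartan, a log2 ratio of -0.036 (-0.052 to -0.021), positive with the TMM factors. Together the 10 most abundant of all members held 24.3% of all member UMIs.

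*Rps6*, which is phosphorylated by kinases downstream of mTOR, had 1166 CPM in control and 1223 CPM in telmisartan, a log2 ratio of 0.069 (0.048 to 0.089). *Rps19*, mutated in an inherited failure of red cell production, had 1034 CPM in control and 1031 CPM in telmisartan, a log2 ratio of -0.0046 (-0.026 to 0.017), positive with the TMM factors. *Rps14*, whose loss impairs red cell maturation in a myelodysplastic syndrome, had 1563 CPM in control and 1514 CPM in telmisartan, a log2 ratio of -0.046 (-0.064 to -0.028). The difference in *Rps19* was thus not detectable at this depth, and the others were small. *Rps2* and *Rps3* line the channel through which mRNA enters. *Rps2* had 934 CPM in control and 900.2 CPM in telmisartan, a log2 ratio of -0.053 (-0.077 to -0.030). *Rps3* had 1308 CPM in control and 1297 CPM in telmisartan, a log2 ratio of -0.013 (-0.032 to 0.0066), positive with the TMM factors. *Rpsa*, also known as a laminin receptor, had 877 CPM in control and 820 CPM in telmisartan, a log2 ratio of -0.098 (-0.12 to -0.074).

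Among the 43 large subunit proteins, 15 were higher and 28 lower in telmisartan, beside 42.9% of all genes higher, with a median log2 ratio of -0.028. With the TMM factors 24 were higher and 19 lower, beside 49.5% of all genes higher, and the median became 0.014. *Rpl13*, a core protein of the subunit, had 1078 CPM in control (1067 to 1088) and 1217 CPM in telmisartan (1205 to 1230), a log2 ratio of 0.18 (0.16 to 0.20). It was higher in telmisartan in 5 of 6 macrophage subclusters, the exception being subcluster 4. *Rpl10*, which is needed for the subunits to join, had 650.3 CPM in control (642 to 658) and 571 CPM in telmisartan (562 to 579), a log2 ratio of -0.19 (-0.22 to -0.16). *Rpl39*, which lines the tunnel through which the new protein leaves, had 2487 CPM in control (2471 to 2503) and 2254 CPM in telmisartan (2236 to 2271), a log2 ratio of -0.14 (-0.16 to -0.13). *Rpl10* and *Rpl39* were lower in telmisartan in all 6 subclusters, each with an interval below 0 in 5 of them.

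Of the other large subunit proteins, *Rpl23*, *Rpl41*, *Rpl17*, *Rpl5*, *Rpl11*, *Rpl3* and *Rpl13a* differed less between the pools. *Rpl23*, which also binds the p53 regulator MDM2, had 2401 CPM in control and 2420 CPM in telmisartan, a log2 ratio of 0.011 (-0.0028 to 0.026). *Rpl41*, among the shortest known proteins, had 2273 CPM in control and 2232 CPM in telmisartan, a log2 ratio of -0.026 (-0.041 to -0.011), positive with the TMM factors. *Rpl17*, at the mouth of the exit tunnel, had 2264 CPM in control and 2161 CPM in telmisartan, a log2 ratio of -0.067 (-0.082 to -0.052). *Rpl5* and *Rpl11* form a particle with a ribosomal RNA that inhibits MDM2 when ribosome assembly is disturbed. *Rpl5* had 1418 CPM in control and 1385 CPM in telmisartan, a log2 ratio of -0.034 (-0.052 to -0.015), positive with the TMM factors. *Rpl11* had 724 CPM in control and 690 CPM in telmisartan, a log2 ratio of -0.069 (-0.096 to -0.043). *Rpl3*, near the catalytic center, had 711 CPM in control and 669 CPM in telmisartan, a log2 ratio of -0.087 (-0.11 to -0.060). *Rpl13a*, which leaves the ribosome after interferon-gamma and then represses inflammatory mRNAs, was counted at 87.2 CPM in control and 82.8 CPM in telmisartan, a log2 ratio of -0.075 (-0.15 to 0.0012).

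The 3 stalk proteins recruit the GTPases that drive translation. *Rplp0*, the base of the stalk, had 1352 CPM in control (1340 to 1364) and 1486 CPM in telmisartan (1471 to 1500), a log2 ratio of 0.14 (0.12 to 0.15). *Rplp1* had 2641 CPM in control and 2600 CPM in telmisartan, a log2 ratio of -0.023 (-0.036 to -0.0088), which turned positive with the TMM factors. *Rplp2* had 1308 CPM in control and 1232 CPM in telmisartan, a log2 ratio of -0.086 (-0.11 to -0.067). *Rplp1* and *Rplp2* pair with each other in the stalk, and *Rplp1* was counted at about the level of *Rplp0* and *Rplp2* added together.

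Near-identical copies make some counts uncertain, because the counting could place reads of one copy on another. The 8 pseudogene columns left out by the rule include *Rpl10-ps3*, with 18.9% as many macrophage-like UMIs as *Rpl10*, *Rpl13a-ps1*, with 18.2% as many as *Rpl13a*, and *Rpl27-ps3*, with 9.14% as many as *Rpl27*. *Rpl10-ps3* had 122 CPM in control and 109.6 CPM in telmisartan, a log2 ratio of -0.15 (-0.22 to -0.086), near that of *Rpl10*. The low counts of *Rpl13a*, and of *Rps10* at 24.0 CPM in control and 26.1 CPM in telmisartan, are the lowest among the proteins of the subunits and stalk, and whether copies take up their reads was not tested. *Rps10* was singled out after its values were seen.

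The paralogs held the members with the largest differences. *Rpl22l1* is a paralog of *Rpl22*, an RNA-binding protein of the large subunit that is needed for the development of some T cells. *Rpl22l1* had 225 CPM in control (221 to 230.1) and 181 CPM in telmisartan (176 to 186), a log2 ratio of -0.32 (-0.37 to -0.27), the lowest among members with at least 200 UMIs. *Rpl22* had 609.8 CPM in control (602 to 618) and 680.4 CPM in telmisartan (671 to 690.0), a log2 ratio of 0.16 (0.13 to 0.19). The paralog thus made up 27.0% of the UMIs of the pair in control (26.5 to 27.5%) and 21.0002% in telmisartan (20.5 to 21.5%). In dendritic-like cells it made up 27.4% in control (25.7 to 29.3%) and 21.4% in telmisartan (19.6 to 23.4%). In T-like cells it made up 33.1% in control (28.9 to 37.5%) and 28.6% in telmisartan (24.5 to 32.9%), intervals that overlap. In macrophage-like cells *Rpl22l1* was lower in telmisartan in 5 of 6 subclusters and *Rpl22* higher in 5 of 6, each with an interval apart from 0 in 4. The exceptions were subcluster 3 for *Rpl22l1* and subcluster 4 for *Rpl22*. A share within a pair does not depend on the scaling.

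*Rps27l* is a paralog of *Rps27* and a target of p53. It had 207 CPM in control (202 to 212) and 173 CPM in telmisartan (168 to 178), a log2 ratio of -0.26 (-0.31 to -0.20). *Rps27* had 1599 CPM in control and 1571 CPM in telmisartan, a log2 ratio of -0.025 (-0.043 to -0.0075), which turned positive with the TMM factors. *Rps27l* made up 11.5% of the pair in control (11.2 to 11.7%) and 9.93% in telmisartan (9.67 to 10.196%). The level of *Rps27l* was lower in telmisartan in all 6 subclusters, with an interval below 0 in 3 of them. In dendritic-like cells *Rps27l* made up 12.2% of the pair in both pools (11.5 to 12.997% and 11.3 to 13.1%), and in T-like cells 6.20% in control (4.96 to 7.65%) and 4.59% in telmisartan (3.57 to 5.81%). *Rpl36al* is an autosomal copy of the X-linked *Rpl36a*. It had 16.6 CPM in control (15.4 to 17.985) and 21.1 CPM in telmisartan (19.5 to 22.9), a log2 ratio of 0.35 (0.18 to 0.51), which became negative, -0.064, as UMIs per cell. *Rpl36a* had 916 CPM in control and 838 CPM in telmisartan, a log2 ratio of -0.13 (-0.15 to -0.11). *Rpl36al* made up 1.78% of the pair in control (1.65 to 1.93%) and 2.46% in telmisartan (2.27 to 2.66%).

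The remaining copies were scarce or changed little. *Rpl7l1* had 53.3 CPM in control and 51.4 CPM in telmisartan, a log2 ratio of -0.053 (-0.15 to 0.045). Its parent *Rpl7* had 787 CPM in control and 845 CPM in telmisartan, a log2 ratio of 0.10 (0.079 to 0.13). *Rps27rt*, a retrocopy of *Rps27*, had 88.1 CPM in control and 91.5 CPM in telmisartan, a log2 ratio of 0.054 (-0.021 to 0.13). It resembles its parent closely, so that its counts may hold molecules of *Rps27*. *Rpl3l*, a muscle paralog of *Rpl3*, had 159 UMIs in macrophage-like cells, *Rpl39l*, best known from testis, had 61, and *Rpl10l*, a retrogene used in male germ cells, had 9. *Rps4x*, an X-linked small subunit protein, had 1459 CPM in control and 1357 CPM in telmisartan, a log2 ratio of -0.10 (-0.12 to -0.086). *Rps19bp1*, which binds *Rps19* protein and the deacetylase SIRT1, had 6.74 CPM in control (5.94 to 7.62) and 7.59 CPM in telmisartan (6.61 to 8.68), a log2 ratio of 0.17 (-0.098 to 0.44).

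T-like cells were compared with macrophage-like cells over both groups for the 80 members with at least 50 UMIs in T-like cells, 6 members falling below. The level was higher in T-like cells for 75 of the 80, beside 68.9% of the 3232 genes past the same filter. A ratio at or above the inverse of 0.8 was reached by 41 of the 80, beside 50% of these genes, and a ratio of 0.8 or less by 0, beside 18.2%. These members passed a filter on T-like UMIs, which favors genes that are high there, and the share past this limit lay near that of all genes. The median log2 ratio was 0.32 for the members and 0.32 for all genes past the filter. With a filter of at least 10000 macrophage-like UMIs, chosen after the values were seen and favoring genes that are high in macrophage-like cells, it was 0.32 for 77 members and -0.22 for all 1054 genes. How the members stood against all genes thus depended on the filter, and neither filter is neutral between the classes.

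The member with the highest ratio was *Rps15a*, a small subunit protein, with 903 CPM in macrophage-like cells and 1968 CPM in T-like cells, a log2 ratio of 1.12 (1.05 to 1.19). Its log2 ratio was 1.07 in the control pool and 1.19 in the telmisartan pool, 1.31 in the cytotoxic T-like cluster and 0.53 in the cluster led by *Foxp3*. *Rps27*, a zinc-finger protein of the small subunit, had 1587 CPM in macrophage-like and 2919 CPM in T-like cells, a log2 ratio of 0.88 (0.82 to 0.94). *Rpsa* had 853 CPM in macrophage-like and 1502 CPM in T-like cells, a log2 ratio of 0.82 (0.74 to 0.89). *Rps27rt* had 89.6 CPM in macrophage-like and 150.7 CPM in T-like cells, a log2 ratio of 0.75 (0.49 to 1.00), on 134 T-like UMIs and with the uncertainty given above. *Rpl34*, of the large subunit, had 1364 CPM in macrophage-like and 2229 CPM in T-like cells, a log2 ratio of 0.71 (0.64 to 0.77).

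A few members were at or below their macrophage-like level over the whole T-like class. *Rps27l* had 193 CPM in macrophage-like and 165 CPM in T-like cells, a log2 ratio of -0.22 (-0.46 to 0.014). *Rps27* and its paralog *Rps27l* therefore lay at opposite ends of the order, and *Rps27l* made up 10.8% of the pair in macrophage-like cells (10.6 to 10.997%) and 5.36% in T-like cells (4.55 to 6.27%). *Rpl31*, at the rim of the exit tunnel, had 1837 CPM in macrophage-like and 1724 CPM in T-like cells, a log2 ratio of -0.092 (-0.17 to -0.019). *Rps29* had 2562 CPM in macrophage-like and 2433 CPM in T-like cells, a log2 ratio of -0.074 (-0.14 to -0.013). *Rps25*, which some viral and cellular mRNAs need to start translation without a cap, had 1384 CPM in macrophage-like and 1334 CPM in T-like cells, a log2 ratio of -0.054 (-0.14 to 0.029). The ratios of *Rps29* and *Rps25* changed sign between the pools, being above 0 in control and below 0 in telmisartan. The T-like clusters differed too, and in the cytotoxic cluster the log2 ratio of *Rpl31* was 0.061 (-0.022 to 0.14), that of *Rps29* 0.014 (-0.057 to 0.085) and that of *Rps25* 0.046 (-0.050 to 0.14). In the cluster led by *Foxp3* the log2 ratio of *Rpl31* was -0.56 (-0.73 to -0.40), that of *Rps29* -0.32 (-0.45 to -0.20) and that of *Rps25* -0.34 (-0.51 to -0.17). *Rps27l* was at -0.25 (-0.54 to 0.033) in the cytotoxic cluster and -0.16 (-0.62 to 0.27) in the cluster led by *Foxp3*, intervals that include 0. The part of macrophage transcripts in the ratios of these clusters was not tested. Over the 84 members with at least 100 macrophage-like UMIs, the highest of the 4 class levels was in T-like cells for 69, beside 40% of all genes past the same filter. It was in dendritic-like cells for 12, beside 16.9% of all genes, and in macrophage-like cells for 3, beside 20.9%.

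**Figure D4:**
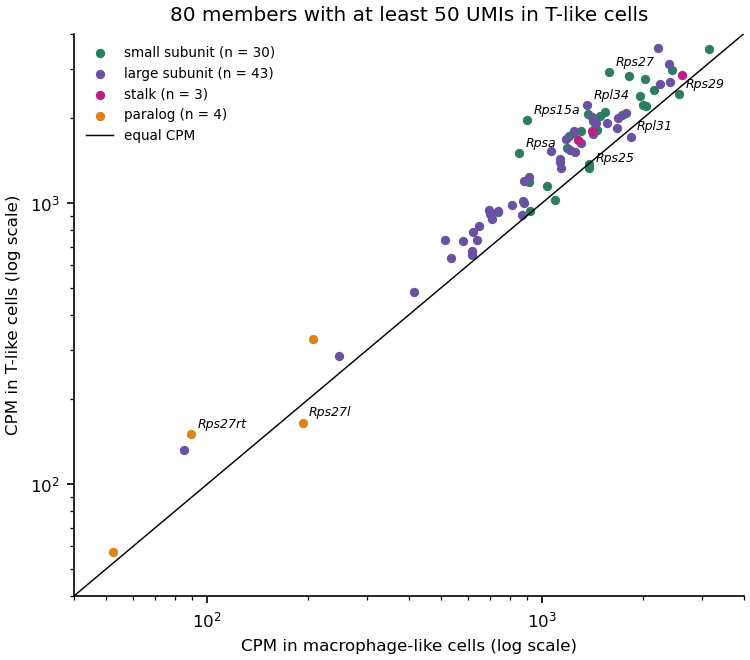
Each point is a member with at least 50 UMIs in T-like cells, by its CPM in macrophage-like cells (x axis, log scale) and in T-like cells (y axis, log scale) over both groups, colored by role, and the line marks equal CPM. Most of the 80 points, 75, lie above the line, with *Rps15a* at 903 and 1968 CPM the farthest above it.

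The members lie on 19 chromosomes, and 86 of 86 were placed by name. After the values were seen, the 4 X-linked members, *Rpl10*, *Rpl36a*, *Rpl39* and *Rps4x*, were found to be lower in telmisartan in macrophage-like cells, by total counts and with the TMM factors alike. Their median log2 ratio was -0.14, or -0.093 with the TMM factors. Beside them, 57.1% of all genes past the filter were lower in telmisartan, and 70.0% of the 330 genes of chromosome X were, with a median of -0.12. The direction of the X-linked members was therefore shared by most genes of their chromosome.

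A pyrimidine run at the start of the transcript is the sequence feature that members are known to share. RefSeq promoter sequences (GRCm38.p6) were matched for 66 members by symbol, with 78 annotated starts. On the transcript strand, the base at the annotated start was a C followed by at least 4 bases that were each C or T at 17.9% of the member starts and at 2.51% of all 32851 starts. A run of this kind began within 5 bases of the start at 41.0% of member starts and 18.3% of all starts. Counted once per symbol, such a run was found at any start of 45.5% of the 66 members. Among 8657 other genes with at least 100 macrophage-like UMIs it was found for 23.6%. The motif was searched on this strand alone and overlapped no other motif searched. A match is a description of these letters, and an annotated start can lie some bases from the one that cells use.

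The following 25 bases, each from 10 before the start, are given for members named above or used as landmarks of TOP mRNAs, with the run in capitals. *Rps6* is at chr4:86857353-86857377 on the minus strand, *Rps15a* at chr7:118116133-118116157 on the minus strand and *Rplp2* at chr7:141447641-141447665 on the plus strand. *Rps27* is at chr3:90213634-90213658 and its retrocopy *Rps27rt* at chr9:114982725-114982749, both on the minus strand, and they are shown together because the bases after the run are alike in the copies. *Rpl22* has 2 annotated starts with no run beginning within 5 bases, the first of which, at chr4:152324426-152324450 on the plus strand, is shown, while in *Rpl22l1*, at chr3:28805498-28805522 on the plus strand, a run begins 3 bases after the start.
Rps6: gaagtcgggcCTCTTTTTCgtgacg
Rps15a: tttctgccatCTTCCCTCgccggtg
Rplp2: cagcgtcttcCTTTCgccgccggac
Rps27: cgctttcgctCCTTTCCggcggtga
Rps27rt: ttatcccttgCTTTCCggcggtgac
Rpl22: cttctggaatgttccagctcccact
Rpl22l1: gcgcaagcccgttCTCTTCCCacgg

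Lists of other genes linked to translation were described beside the members in macrophage-like cells, where 57.1% of all genes were lower in telmisartan and the median log2 ratio of all genes was -0.046. A list of TOP mRNAs held translation factors and also other genes, such as *Npm1*, *Hnrnpa1* and *Snhg12*. Of its 18 measured genes, 4 were higher and 14 lower in telmisartan, with a median log2 ratio of -0.11. The most abundant of them, *Tpt1*, had 4468 CPM in control and 4811 CPM in telmisartan, a log2 ratio of 0.11 (0.096 to 0.12). *Eef1a1*, which brings aminoacyl-tRNA to the ribosome, had 4311 CPM in control and 4047 CPM in telmisartan, a log2 ratio of -0.091 (-0.10 to -0.081). Of 41 ribosome biogenesis genes, 13 were higher and 28 lower, with a median of -0.096, and *Ncl*, the nucleolar protein nucleolin, had 471 CPM in control and 402 CPM in telmisartan, a log2 ratio of -0.23 (-0.26 to -0.20). Of 77 mitochondrial ribosomal proteins, which serve a separate ribosome, 14 were higher and 63 lower, with a median of -0.16. Of 8 regulators of TOP mRNA translation, 3 were higher and 5 lower, with a median of -0.060, and with the TMM factors 4 were higher and 4 lower. Among them *Eif4e*, the cap-binding protein, had 151 CPM in control and 180.4 CPM in telmisartan, a log2 ratio of 0.26 (0.20 to 0.31), and *Larp1*, which binds TOP mRNAs, had 155 CPM and 144 CPM, a log2 ratio of -0.10 (-0.16 to -0.043). The TMM factors move every gene alike, by 0.042. With them the medians of these 4 lists, in the order given, were -0.064, -0.054, -0.12 and -0.018. The median of all genes was then -0.0038, that of the small subunit proteins 0.030 and that of the large subunit proteins 0.014. Ribosomal proteins outside the naming rule included *Fau*, with 1133 CPM in control and 1186 CPM in telmisartan, and *Rack1*, with 896 CPM and 825 CPM.

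Across 20 combinations of cluster and pool with at least 50 cells, the genes outside the members whose log2 CPM followed the summed member level most closely were *Rack1* (Pearson r 0.98) and *Naca* (0.98), followed by *Eif3e* (0.96), *Eef1b2* (0.95) and *Eif3m* (0.94), among 6901 candidates. *Rack1* is itself a protein of the small subunit, *Naca* a chaperone at the exit tunnel, *Eif3e* and *Eif3m* initiation factor subunits and *Eef1b2* an elongation factor subunit. The 20 points share 1 capture and its free RNA, and the same clusters occur in both pools.

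Cells with over 20% mitochondrial UMIs were not used above. In them the members took 5.13% of UMIs in control (5.11 to 5.15%, 2623 cells) and 5.88% in telmisartan (5.86 to 5.90%, 4433 cells). Mitochondrial UMIs made up 49.5% and 47.7% of their UMIs. Of their other UMIs the members took 10.16% in control and 11.2% in telmisartan, beside 10.996% in control and 11.008% in telmisartan for cells at or under the limit, before doublets were removed.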

How the data were processed

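Counts of UMIs per gene and cell, and counts of Sample Tag reads, were deposited by the authors without normalization, for the putative cells called by the pipeline. Per the file headers, they come from the BD Rhapsody WTA Analysis Pipeline 1.11, which counted intronic reads too and used the genome GRCm38 and the genes of GENCODE M19. Members and lists were chosen with earlier results of these data known.

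A cell took the tag with at least 75% of at least 10 tag reads, and was left out below 150 or above 5000 genes or above 20% mitochondrial UMIs. Scrublet (scanpy 1.11.5, Python 3.11.15) marked 0 cells by its automatic threshold, so the 942 cells with the highest scores were removed, 9.51% being the share of same-tag doublets expected from 8.67% multiplets. Cells were clustered in Seurat 5.3.0 (R 4.3.3) with 2000 variable genes less the members, 30 components, 20 neighbors and resolution 0.5, which gave 13 clusters. A cluster was named by at least 3 markers of a class at 4-fold or more, and otherwise macrophage-like if it carried macrophage markers. Macrophage-like cells were clustered again at resolution 0.35, the lowest on a grid of 0.05 that gave 6 subclusters.

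UMIs were summed per class and group. Intervals are Poisson, Clopper-Pearson or conditional binomial, computed with scipy 1.17.1, pandas 2.3.3 and numpy 2.4.6, and the ratio and its interval were tested on simulated data. TMM factors are from edgeR 4.0.16 and figures from matplotlib 3.10.9. Gene positions are from GENCODE M21. Named members were the 10 most abundant, the 5 highest and 5 lowest ratios between groups (at least 200 UMIs) and between T-like and macrophage-like cells (at least 50 T-like UMIs), paralogs with their parents, landmarks with a known role and *Rps19bp1*, and some of these are not reported here. Most-like genes had at least 1000 UMIs. *Gas5*, on the list of TOP mRNAs, has no column in the table.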

Additional observations from a re-analysis of the deposited data

How the results depend on the processing

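The log2 ratio of the member share in macrophage-like cells, telmisartan over control, was -0.0091 and changed sign with several choices. It was -0.42 as UMIs per cell, -0.044 as the mean of each cell's own share, 0.00066 without mitochondrial UMIs, 0.033 with TMM factors, -0.040 in cells thinned to 1000 UMIs, 0.024 with bins of depth weighted equally, 0.014 without clusters of low UMI counts and 0.013 with subclusters weighted equally. Chosen after seeing the data, leaving out the clusters of the lowest and next lowest UMI counts gave 0.036. The cause was not tested.

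With a tag share of at least 90% the ratio for macrophage-like cells was -0.0057, for neutrophil-like cells -1.005, for T-like cells 0.031 and for dendritic-like cells 0.013, and T-like over macrophage-like was 0.24. With at least 500 genes it was -0.011 in macrophage-like and -0.12 in T-like cells, and T-like over macrophage-like was 0.35. With at most 10% mitochondrial UMIs it was -0.017 for macrophage-like, -0.16 for T-like and 0.016 for dendritic-like cells, T-like over macrophage-like was 0.42 and 0 members passed the fold limit. Without doublet removal it was -0.0060, -1.08 in neutrophil-like and -0.14 in T-like cells, T-like over macrophage-like was 0.25 and 0 members passed the fold limit. T-like over macrophage-like was 0.37 in control and 0.30 in telmisartan cells alone, both chosen after seeing the data.

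Members higher with telmisartan numbered 31, 51 with TMM factors and 0 as UMIs per cell. *Rpl36al* was -0.064 as UMIs per cell. Of 450 values of 45 named members under 10 alternatives, 359 stayed within the counting interval of the reported value and 90 moved outside it. The 1 remaining value, that of *Rpl36al* as UMIs per cell, also lay outside its interval and was counted apart, as reversed.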
